A study of Arabidopsis thaliana with 24 samples.

Results

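The genes described here are 10 genes of Arabidopsis thaliana that belong to the heat shock response and to the DREB2 branch of dehydration signalling. They are the chaperone genes HSP90.1 (AT5G52640), HSP101 (AT1G74310), HSP70-4 (AT3G12580), HSP17.4 (AT3G46230) and HSP23.6 (AT4G25200), the heat shock factor genes HSFA2 (AT2G26150), HSFA3 (AT5G03720) and HSFA6B (AT3G22830), and the transcription factor genes DREB2A (AT5G05410) and DREB2B (AT3G11020). They were picked by identifier, and all 10 were found among the 37336 gene identifiers of each table. The study sequenced leaf RNA of gtl1-4, a single knockout mutant of GTL1, which encodes a trihelix transcription factor, and of the wild type Col-0. Both lines were grown under water deficit (30% media water content) and well-watered (65 to 100%). The tables hold emerging leaves, sampled on day 1 after they appeared, and expanding leaves, sampled on day 14 or 15. This gave 8 groups of 3 biological replicates, with 10 plants pooled into a replicate. Within each leaf age the groups were gtl1-4 under deficit, gtl1-4 well-watered, Col-0 under deficit and Col-0 well-watered. Every group grew at 23 °C in the day and 18 °C at night with 8 h of light at 150 μmol m-2 s-1, and no heat treatment is named in the labels. The title of the series concerns the repression of GTL1 by deficit, and the comparisons below ask what deficit, loss of GTL1 and their combination did to these 10 genes.

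Heat shock proteins are chaperones that bind unfolded proteins, and most of their genes are switched on by heat shock factors of class A, which bind repeats of the heat shock element. DREB2A is a transcription factor of dehydration and heat, and its protein is broken down in unstressed cells, so its transcript level and its activity need not move together. DREB2A binds the dehydration-responsive element and is known to switch on HSFA3, which in turn switches on chaperone genes, so the factors and chaperones among the members form a known chain of regulation.

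In RefSeq's TAIR10.1 assembly the members lie on all 5 chromosomes, and each is a protein-coding gene with 1 to 6 exons. HSP90.1 spans chr5:21352557-21355147 on the plus strand with 4 exons, HSP101 chr1:27936508-27940369 on the minus strand with 5 or 6, and HSP70-4 chr3:3991117-3993886 on the minus strand with 2. HSFA3 spans chr5:971142-974326 on the minus strand with 2 or 3 exons, DREB2A chr5:1602205-1604112 on the plus strand with 2 or 3, and DREB2B chr3:3455355-3457342 on the plus strand with 2. Gene values sum all exons and transcripts of a locus, so isoforms such as those of HSFA2 and DREB2A are not told apart here.

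Libraries of emerging leaves held 14.7 to 43.5 M counts, of which 11.4 to 32.8 M fell on nuclear genes, and those of expanding leaves 14.9 to 27.1 M, of which 4.74 to 10.0 M were nuclear. Chloroplast genes took at most 24.1% of counts in emerging and 62.2 to 78.6% in expanding leaves. GTL1 read 151 to 384 normalized counts in gtl1-4 against 954 to 1511 in Col-0 in emerging leaves, and 123 to 322 in gtl1-4 against 421 to 951 in Col-0 in expanding leaves, without overlap. Genes that mark leaf mesophyll were high in every library (summed normalized count 134451 to 310475 over 4 genes). Of the other markers, those of seed and root summed to at most 2.98 and 9.33 normalized counts, and 3 pollen markers were at 0 in every library. Markers of dividing cells summed to 5062 to 9476 normalized counts in emerging and to 78.7 to 203 in expanding leaves. In emerging leaves their sum was lower under deficit, at 5062 to 7007 against 7976 to 8840 in gtl1-4 and at 5717 to 7222 against 9021 to 9476 in Col-0. The summed mesophyll markers also differed by water supply. In expanding leaves the sum was lower under deficit without overlap, at 169711 to 188309 against 200561 to 250079 in gtl1-4 and at 134451 to 168702 against 170834 to 204082 in Col-0. In emerging leaves it was higher under deficit in gtl1-4, at 255831 to 310475 against 214555 to 237235, and overlapped in Col-0, at 257003 to 299832 against 263623 to 275917. In expanding leaves, Col-0 well-watered replicate 3 and Col-0 deficit replicate 2 were the replicates least like the others of their group. Calls for deficit in expanding leaves of Col-0 that were lost or gained without them are given below. Other replicates were also unlike each other. In emerging leaves, deficit replicates 1 and 2 had a Pearson r of 0.947 in Col-0 and of 0.947 in gtl1-4 (log2 values). In expanding leaves, Col-0 deficit replicate 2 had 0.947 and 0.951. The emerging-leaf libraries were left out only 1 at a time. In limma tests of each mesophyll gene, 0 of 4 were called for deficit in gtl1-4 at either age. In Col-0, CA1 was called higher in emerging and RCA lower in expanding leaves. Without the 2 unlike Col-0 libraries the RCA call in Col-0 was lost (log2 fold change -0.52, adjusted p 0.111), and RCA was called lower in gtl1-4 (-0.58, adjusted p 0.0312). The part that these marker shifts play in the results below was not tested. In these bulk samples fewer cells of a type and less RNA per cell cannot be told apart.

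The sequences upstream of the annotated starts show which members carry the binding letters of the factors named above. In the 250 bases before each start, both strands were searched for the heat shock element pair (GAANNTTC or TTCNNGAA), for its triple (GAANNTTCNNGAA or TTCNNGAANNTTC, which contains pairs), for the dehydration-responsive element (ACCGAC or GCCGAC), for the core of the abscisic acid-responsive element (ACGTG), and for the GT3 box of trihelix factors (GGTAAA). The pair was found in 3 of 10 members, HSP17.4, HSFA2 and DREB2A, against 16.1% of 27443 windows of the same length. The same 3 members held the triple, which 0.386% of all windows hold. The dehydration-responsive element was found in 0 of 10 members and in 7.09% of all windows, the ACGTG core in 5 of 10 members and in 22.9%, and the GT3 box in 2 of 10 members, HSP17.4 and HSFA3, and in 14.8%. The 3 windows with a triple are printed below 5′ to 3′ from RefSeq's TAIR10.1 assembly, with heat shock element pairs and triples and ACGTG matches on either strand in capitals, since a heat shock factor gene and a DREB2 gene share this feature with a small heat shock protein gene.
HSP17.4, chr3:16984868-16985117, minus strand: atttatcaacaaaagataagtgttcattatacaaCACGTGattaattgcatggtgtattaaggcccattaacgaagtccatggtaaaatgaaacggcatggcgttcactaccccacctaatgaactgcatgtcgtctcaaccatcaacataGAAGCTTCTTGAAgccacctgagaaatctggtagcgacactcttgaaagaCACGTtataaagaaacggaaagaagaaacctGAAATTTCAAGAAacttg
HSFA2, chr2:11135374-11135623, plus strand: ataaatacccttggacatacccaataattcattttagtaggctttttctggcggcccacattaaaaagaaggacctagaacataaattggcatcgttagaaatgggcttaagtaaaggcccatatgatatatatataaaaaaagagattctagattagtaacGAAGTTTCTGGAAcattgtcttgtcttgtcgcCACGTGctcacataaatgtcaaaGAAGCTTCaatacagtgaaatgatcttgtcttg
DREB2A, chr5:1601955-1602204, plus strand: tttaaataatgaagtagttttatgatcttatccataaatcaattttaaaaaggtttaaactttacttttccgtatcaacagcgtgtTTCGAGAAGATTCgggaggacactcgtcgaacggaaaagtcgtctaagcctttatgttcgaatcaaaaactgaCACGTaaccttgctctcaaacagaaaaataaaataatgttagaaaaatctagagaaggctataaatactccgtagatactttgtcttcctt
Counted from the annotated start, the triples begin at -99 and -18 in HSP17.4, at -88 in HSFA2 and at -164 in DREB2A. These matches are letters in a window, not sites shown to be bound. Only exact matches within 250 bases were searched, so a window without a match does not show that the gene lacks the element. The annotated model of HSP90.1 begins at an ATG, and its window ends shortly after another ATG. That window may therefore include a transcribed leader and coding bases. As described below, HSP17.4 was near 0 in these leaves, whereas HSFA2 and DREB2A had reads in nearly all emerging-leaf libraries.

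Levels of the 10 genes were compared per transcript length, in CPM of nuclear counts per kb of transcript (CPM per kb), a scale that is the same for both leaf ages although the tables were scaled separately. HSP70-4, a cytosolic HSP70, was the highest member at both ages, with a median of 19.7 CPM per kb (13.6 to 27.1 over 12 libraries) in emerging and 13.1 (6.26 to 37.9) in expanding leaves. HSP90.1, the heat-inducible cytosolic HSP90, followed with medians of 3.36 and 3.32 CPM per kb (over a coding length, since its model has no leader), and HSP101, the disaggregase needed for acquired heat tolerance, had medians of 2.76 in emerging and 1.38 in expanding leaves. The range of HSP70-4 overlapped with no other member at either age, whereas the ranges of HSP90.1 and HSP101 overlapped at both.

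All factor genes had lower medians than these 3 chaperone genes. In emerging leaves the medians were 0.735 CPM per kb for DREB2B, 0.435 for HSFA2, 0.281 for HSFA3, 0.180 for DREB2A and 0.0321 for HSFA6B, and in expanding leaves 0.952 for DREB2B, 0.629 for DREB2A, 0.454 for HSFA3 and 0.249 for HSFA2. Neighbours in this order overlapped widely, so their order is not beyond the spread between libraries. HSFA6B, a factor tied to abscisic acid in salt and drought, had no read in any expanding-leaf library, which with 3 counts allows up to 1.86 to 4.23 normalized counts per library. HSP101 stood apart between the ages, at 0.845 to 2.50 CPM per kb in expanding leaves against 2.61 to 3.87 in emerging leaves, without overlap. No test was made between ages.

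**Figure D1:**
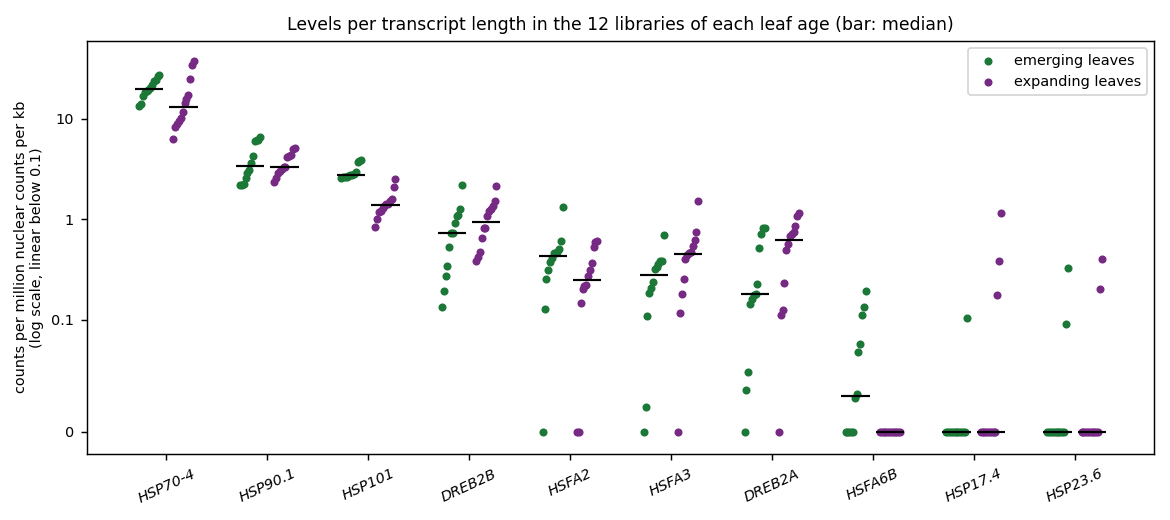
Level of each of the 10 genes in every library, in CPM of nuclear counts per kb of transcript, on a log scale that is linear below 0.1; green points are emerging and purple points expanding leaves, and bars are medians over 12 libraries. HSP70-4 lies above all others, HSP101 is lower in every expanding-leaf library than in any emerging-leaf library, and HSP17.4 and HSP23.6 have a median of 0.

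Genes were tested where they averaged 10 normalized counts or more over the 12 libraries of a leaf age, a low-value filter passed by 7 of 10 members in emerging leaves and by 3 of 10, HSP90.1, HSP101 and HSP70-4, in expanding leaves. In emerging leaves HSP17.4, HSP23.6 and HSFA6B fell below it. DREB2A lay just inside in emerging leaves with a mean of 10.95, and DREB2B just outside in expanding leaves with 9.94. In emerging leaves limma called 2 of the 7 tested members for water deficit in gtl1-4 (8.87% of all 18529 genes tested were called) and 1 of 7 in Col-0 (13.2%). In expanding leaves it called 0 of 3 in gtl1-4 (4.76% of 16522 genes) and 1 of 3 in Col-0 (13.5%). For the count of 0 in gtl1-4, 1 member had an unadjusted p under 0.05 and limma-voom also called 0. With 3 or 7 genes these shares cannot be told from the background, and the calls are described gene by gene. The median log2 fold change of the tested members was 0.20 in gtl1-4 and 0.60 in Col-0 in emerging leaves, where the medians of all genes were -0.0023 and -0.0033, and 0.19 in gtl1-4 and 0.64 in Col-0 in expanding leaves, where all genes had 0.0078 and 0.016.

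HSP90.1 rose under deficit in emerging leaves of both lines. In gtl1-4 the 3 deficit libraries held 154, 273 and 186 normalized counts and the well-watered libraries 101, 145 and 92.1. In Col-0 the deficit libraries held 270.4, 264 and 266, and the well-watered libraries 132, 117 and 102. Deficit and well-watered libraries did not overlap in either line, the Col-0 deficit libraries lay close together, and replicate 2 was the highest of the gtl1-4 deficit libraries. The log2 fold change was 0.84 in gtl1-4 (SE 0.23, limma adjusted p 0.0334, n = 3 per group) and 1.19 in Col-0 (SE 0.23, adjusted p 0.00343), and these responses did not differ beyond the spread (interaction -0.35, 95% interval -1.04 to 0.34, adjusted p 0.906). The call in Col-0 held in all 24 alternatives, while that in gtl1-4 held in 17 of 24. It was lost without gtl1-4 well-watered replicate 1 (adjusted p 0.120), well-watered replicate 3 (0.0863) or deficit replicate 2 (0.131), and also with only the groups compared (0.109), no low-value filter (0.0590), no variance trend (0.0545) or quantile normalization (0.0517).

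In expanding leaves HSP90.1 was 44.8, 55.8 and 55.1 normalized counts under deficit and 40.6, 43.7 and 55.2 well-watered in gtl1-4, and 66.0, 41.8 and 67.5 under deficit and 30.0, 45.3 and 34.9 well-watered in Col-0. The groups overlapped in both lines. The log2 fold changes of 0.16 in gtl1-4 (95% interval -0.39 to 0.71, adjusted p 0.847) and 0.64 in Col-0 (0.10 to 1.19, adjusted p 0.110) did not pass. Without the 2 unlike Col-0 libraries the value in Col-0 was 0.84 (adjusted p 0.0747).

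HSP70-4 rose in expanding leaves of Col-0, and in gtl1-4 its groups were also apart but the difference missed the threshold. In expanding leaves it held 258, 578 and 269.8 normalized counts under deficit against 139, 167 and 161 well-watered in gtl1-4. In Col-0 it held 548, 224 and 389.6 under deficit against 134, 192 and 102 well-watered. In each line every deficit library lay above every well-watered one, with replicate 2 of gtl1-4 and replicate 1 of Col-0 far above the other deficit libraries of their lines. The rise passed in Col-0 (log2 fold change 1.39, SE 0.32, adjusted p 0.00966), a call lost without Col-0 deficit replicate 1 (adjusted p 0.0539) and kept without the 2 unlike Col-0 libraries (1.52, adjusted p 0.00625). In gtl1-4 the fold change of 1.14 (SE 0.32, adjusted p 0.0555) missed the threshold and passed it in 10 of 25 alternatives, with adjusted p from 0.00982 to 0.298, among them the fit without the 2 unlike Col-0 libraries (0.00994). The difference between the lines was -0.25 (95% interval -1.22 to 0.72, adjusted p 0.951).

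In emerging leaves HSP70-4 held 874, 1420 and 1009 normalized counts under deficit and 1006, 1218 and 676 well-watered in gtl1-4, which overlap. In Col-0 it held 1334, 1259 and 1226 under deficit and 769, 1090 and 1021 well-watered, which do not. The fold changes of 0.20 in gtl1-4 (95% interval -0.23 to 0.63, adjusted p 0.595) and 0.42 in Col-0 (-0.01 to 0.85, adjusted p 0.190) did not pass.

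HSP101 showed a gap between the lines under deficit that did not pass the correction. In emerging leaves under deficit it held 185, 179.8 and 182 normalized counts in gtl1-4 against 248, 251 and 262 in Col-0. The well-watered libraries held 186, 206 and 178 in gtl1-4 and 209, 189 and 191 in Col-0. The Col-0 deficit libraries were the 3 highest of the 12. Its difference under deficit was -0.47 (95% interval -0.79 to -0.16, unadjusted p 0.00576, adjusted p 0.562, lower in 3 of 3 gtl1-4 libraries), the water response was -0.06 in gtl1-4 (adjusted p 0.855) and 0.37 in Col-0 (adjusted p 0.117), and the interaction was -0.42 (95% interval -0.87 to 0.02, adjusted p 0.889). In expanding leaves HSP101 was 17.2 to 49.8 normalized counts over all 12 libraries, every pair of groups overlapped, and no comparison passed. Its water response in Col-0 was -0.20 (adjusted p 0.742), and the sign turned without the 2 unlike Col-0 libraries (0.10, adjusted p 0.915).

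**Figure D2:**
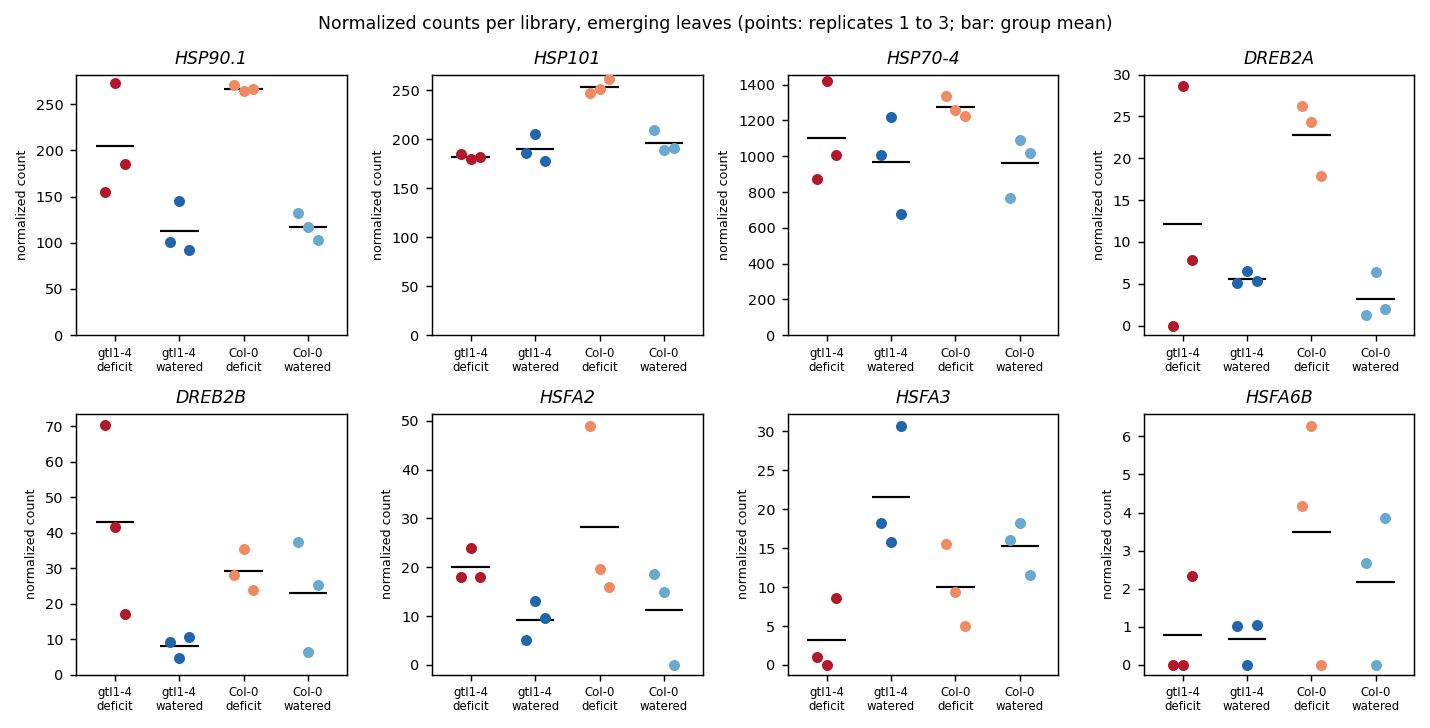
Normalized counts of 8 of the genes in the 12 libraries of emerging leaves, with points for replicates 1 to 3 and bars for group means; in each panel the gtl1-4 groups stand left and the Col-0 groups right. HSP90.1 is higher under deficit in each line, and the HSP101 libraries of Col-0 under deficit, at 248 to 262, lie above the other 9.

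**Figure D3:**
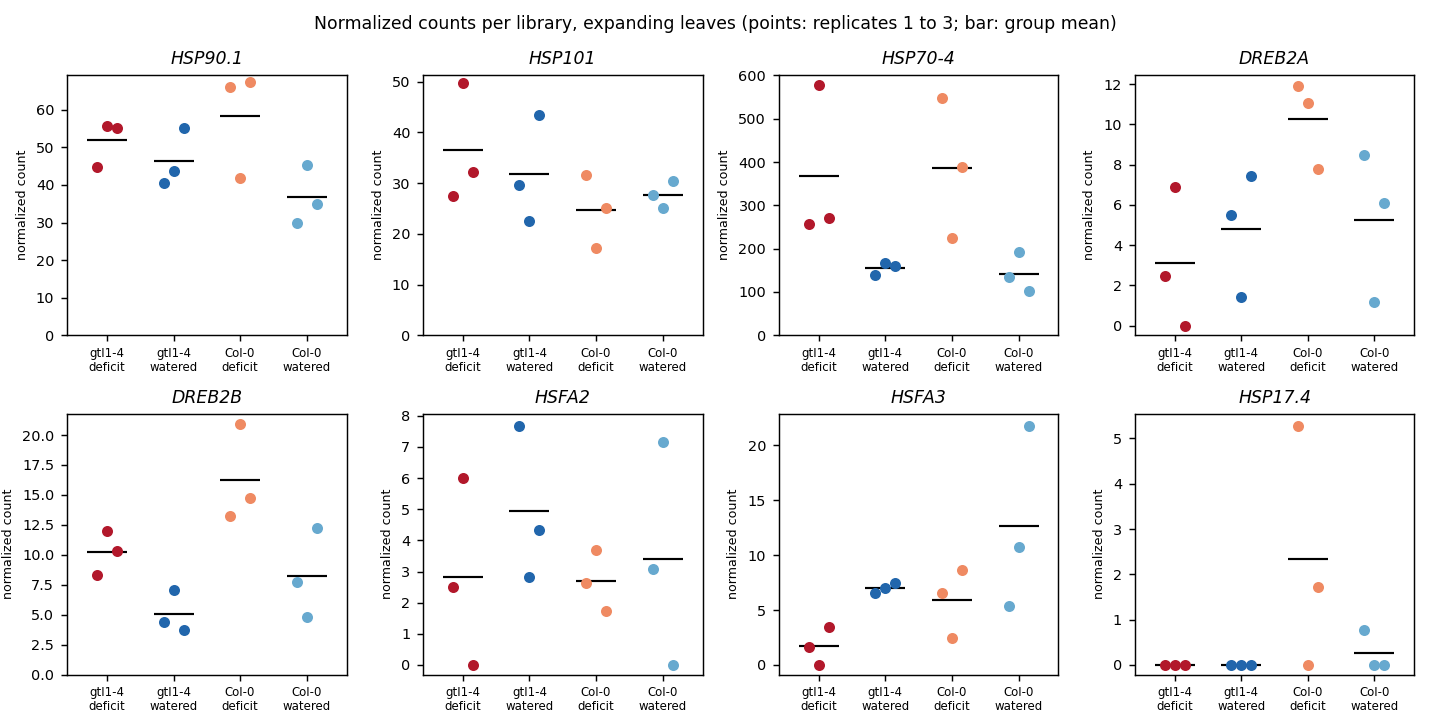
Normalized counts of 8 of the genes in the 12 libraries of expanding leaves, drawn in the same way. HSP70-4 is higher in every deficit library than in any well-watered library of its line, at 258 to 578 against 139 to 167 in gtl1-4 and at 224 to 548 against 102 to 192 in Col-0.

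The rise of HSP90.1 and HSP70-4 was set against the other cytosolic HSP90 and HSP70 genes, most of which serve unstressed cells. HSC70-1, HSC70-3, HSP90.2 and HSP90.3 were far more abundant than HSP90.1 and HSP70-4 at both ages. Other genes of the list, such as HSP70B, were lower than HSP70-4 at both ages. In this list of 9 genes, 8 were tested, and under deficit 0 rose and 3 fell in gtl1-4 and 0 rose and 1 fell in Col-0 in emerging leaves. In expanding leaves 0 rose and 3 fell in gtl1-4, and 1 rose and 3 fell in Col-0. The median fold changes were -0.33 in gtl1-4 and -0.29 in Col-0 for emerging leaves, and -0.24 in gtl1-4 and -0.25 in Col-0 for expanding leaves. In gtl1-4 emerging leaves HSP90.3 was 10797 ± 1843 under deficit and 15326 ± 798 well-watered (SD, n = 3; log2 fold change -0.52, adjusted p 0.0130), HSP90.4 fell by 0.47 (adjusted p 0.0215) and HSP90.2 by 0.37 (adjusted p 0.04998, past the threshold in 9 of 24 alternatives). In Col-0 emerging leaves HSP90.2 fell by 0.43 (adjusted p 0.0195).

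In expanding leaves HSC70-3, a constitutive cytosolic HSP70, was 1956 ± 140 under deficit and 3956 ± 752 well-watered in gtl1-4 (log2 fold change -0.9996, adjusted p 0.00393) and 1220 ± 314 under deficit and 2621 ± 349 well-watered in Col-0 (-1.13, adjusted p 0.000794). HSP90.3 fell by 0.67 in gtl1-4 (adjusted p 0.0150) and by 0.66 in Col-0 (adjusted p 0.00920). HSP70B, another heat-inducible HSP70, rose in Col-0 with 47.0 ± 29.2 normalized counts under deficit and 15.0 ± 7.38 well-watered (1.51, adjusted p 0.0269), against -0.08 in gtl1-4 (adjusted p 0.960), and the interaction of this gene was not called. Without the 2 unlike Col-0 libraries these 3 calls in Col-0 were kept (HSC70-3 adjusted p 0.00413, HSP90.3 0.0450, HSP70B 0.0303), and that of HSP90.2 was lost (-0.39, adjusted p 0.177). HSP70T-2 was then called higher in Col-0 (1.84, adjusted p 0.0396), against 1.41 (adjusted p 0.0524) with all libraries. The directions of the genes named here as called with all libraries held under each other scaling. HSP90.2, HSP90.3 and HSP90.4 are near-identical in sequence, so the division of reads among them is uncertain.

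**Figure D4:**
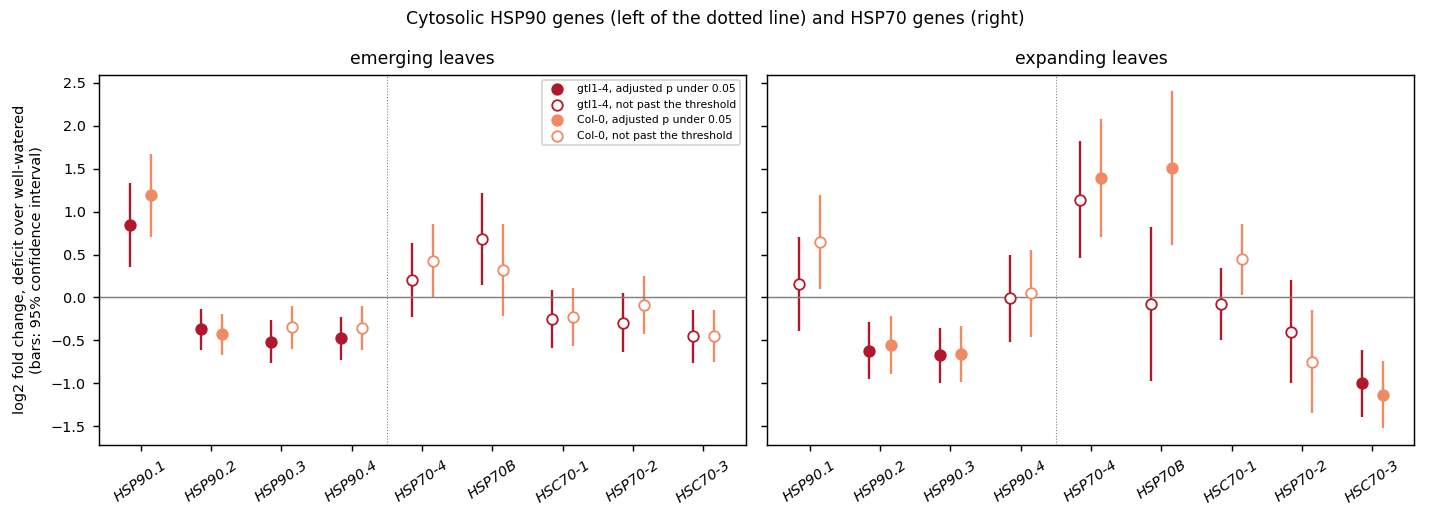
Log2 fold change of deficit over well-watered for the cytosolic HSP90 genes (left of the dotted line) and HSP70 genes (right) in emerging and expanding leaves, with 95% confidence intervals, gtl1-4 in dark red left of Col-0 in orange; filled points passed an adjusted p of 0.05. HSP90.1 and HSP70-4 lie above 0 and HSP90.2, HSP90.3 and HSC70-3 below 0 at both ages, although not all of these passed.

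As shares of the summed per-length level of their families, HSP90.1 and HSP70-4 made up a small part in every group. Among 4 cytosolic HSP90 genes its share in emerging leaves was 0.987 ± 0.375% under deficit and 0.397 ± 0.0912% well-watered in gtl1-4, and 1.18 ± 0.122% and 0.399 ± 0.0668% in Col-0 (SD, n = 3 each). In expanding leaves the share was 1.52 ± 0.218% under deficit and 0.880 ± 0.0693% well-watered in gtl1-4, and 2.097 ± 0.203% and 0.898 ± 0.0832% in Col-0. Deficit and well-watered libraries did not overlap in any of these 4 pairs. A share also rises where the other genes of its family fall, so a higher share alone does not show a rise of the gene. In expanding leaves of gtl1-4 HSP90.1 itself did not pass (log2 fold change 0.16, adjusted p 0.847). There HSP90.2 fell by 0.62 (adjusted p 0.0312) and HSP90.3 by 0.67 (adjusted p 0.0150). Among 5 cytosolic HSP70 genes the share of HSP70-4 in emerging leaves was 1.18 ± 0.303% under deficit and 0.847 ± 0.139% well-watered in gtl1-4, with overlap, and 1.35 ± 0.117% and 0.853 ± 0.101% in Col-0, without. In expanding leaves it was 1.65 ± 0.820% under deficit and 0.629 ± 0.1003% well-watered in gtl1-4, without overlap, and 1.63 ± 0.755% and 0.727 ± 0.130% in Col-0, with overlap. These shares do not depend on the scaling between libraries, and they were computed after the fold changes were seen, so they were not tested.

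The small heat shock protein genes among the members stayed at the limit of detection. HSP17.4, a cytosolic small chaperone strongly induced by heat, had reads in 1 of 12 emerging-leaf libraries and in 3 of 12 expanding-leaf libraries, with at most 5.28 normalized counts, in Col-0 deficit replicate 1 of expanding leaves. HSP23.6, its mitochondrial relative, had reads in 2 of 12 libraries at each age, with at most 7.02. No fold change is given for genes at this level, and differences could not be seen at this depth. In TAIR10.1, 56.6% of the 100-base windows of HSP17.4 also lie in AT3G07365, a gene on the opposite strand that was listed at 0 in every library. AT3G46220, also on the opposite strand, overlaps the HSP17.4 locus without sharing a whole 100-base window, and it held 611 to 966 normalized counts in emerging and 132 to 204 in expanding leaves.

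Of 13 other small heat shock protein genes 7 passed the filter in emerging leaves, and under deficit 1 rose in gtl1-4 and 2 rose and 1 fell in Col-0. HSP17.6B-CI, a cytosolic class I protein, was 39.4 ± 12.7 normalized counts under deficit and 10.6 ± 6.78 well-watered in gtl1-4 (log2 fold change 2.01, adjusted p 0.0448, past the threshold in 7 of 23 alternatives) and 61.5 ± 14.4 and 10.7 ± 4.85 in Col-0 (2.47, adjusted p 0.0124). In Col-0 HSP15.7, a peroxisomal protein, rose by 1.35 (adjusted p 0.0451) and HSP15.4 fell by 1.91 (adjusted p 0.0346). In expanding leaves 2 of 13 passed the filter, and HSP15.4 fell by 1.69 in gtl1-4 (adjusted p 0.0304), while 0 of 2 were called in Col-0.

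Among the heat shock factor genes, HSFA3 fell under deficit in gtl1-4 emerging leaves and, over both lines, in expanding leaves. In emerging leaves of gtl1-4 it held 1.002, 0 and 8.58 normalized counts under deficit against 18.3, 15.8 and 30.7 well-watered, and in Col-0 15.5, 9.41 and 4.96 under deficit against 16.0, 18.3 and 11.6 well-watered. The groups were apart in gtl1-4 and overlapped in Col-0. The fold change was -3.02 in gtl1-4 (SE 0.86, adjusted p 0.0398) and -0.67 in Col-0 (SE 0.86, adjusted p 0.663), with an interaction of -2.35 (95% interval -4.94 to 0.24, adjusted p 0.889). The call in gtl1-4 rests on few reads: it held in 12 of 23 alternatives (adjusted p 0.00848 to 0.132). Of 12 fits without 1 library 8 lost it, namely those without any gtl1-4 library other than deficit replicate 3 (0.0930 to 0.113) and those without any Col-0 well-watered library (0.0577 to 0.0642).

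In expanding leaves HSFA3 held 1.66, 0 and 3.44 normalized counts under deficit against 6.58, 7.06 and 7.45 well-watered in gtl1-4, and 6.60, 2.46 and 8.66 under deficit against 5.39, 10.7 and 21.8 well-watered in Col-0. As in emerging leaves, the groups were apart in gtl1-4 and overlapped in Col-0. Below the filter, the 6 deficit and 6 well-watered libraries were compared by an exact permutation test within lines, two-sided, which was run 5 times for members of this kind and can give no p under 0.005. A call was an adjusted p under 0.05 over these 5 tests, which HSFA3 and DREB2B passed. The limma calls were adjusted over all genes tested, so these calls met a less strict correction. The permutation test was run on members only, so no share over all genes stands beside them. For HSFA3 the mean difference was -1.37 on the log2(value + 1) scale (exact p 0.0150), with 3.803 ± 3.24 normalized counts under deficit and 9.83 ± 6.12 well-watered (SD, n = 6 each). Without 1 library the p was 0.01 to 0.055, and after adjustment HSFA3 passed in 2 of 12 such tests, those without Col-0 deficit replicate 1 or 3. Without the 2 unlike Col-0 libraries its call was lost (-1.10, exact p 0.05, adjusted p 0.125, 5 against 5 libraries). AT5G03710, which overlaps the HSFA3 locus, had at most 1.56 normalized counts.

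HSFA2, a factor that prolongs the heat response, did not pass in any comparison. In emerging leaves it held 18.0, 23.97 and 17.9 normalized counts under deficit against 5.08, 13.04 and 9.53 well-watered in gtl1-4, without overlap (log2 fold change 1.11, 95% interval -0.90 to 3.11, adjusted p 0.511). In Col-0 it held 49.0, 19.6 and 15.9 under deficit against 18.7, 15.0 and 0 well-watered, with overlap (1.93, -0.07 to 3.93, adjusted p 0.198). In expanding leaves it stayed between 0 and 7.68 normalized counts (exact permutation test within lines, 6 against 6 libraries, p 0.540). HSFA6B had at most 6.28 normalized counts in emerging leaves, with reads in 7 of 12 libraries (exact permutation p 0.845).

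Other genes of the factor family also changed. Of 12 other class A factor genes 8 were tested at each age. HSFA6A, the closest relative of HSFA6B, held 27.4, 127 and 35.6 normalized counts under deficit in expanding leaves of gtl1-4 and was at 0 in all 3 well-watered libraries, at least 20.2-fold higher against the mean of a floor of 3 counts per library (adjusted p 0.000144). In Col-0 it held 102, 139 and 125 under deficit and 0, 7.14 and 1.74 well-watered (log2 fold change 5.43, SE 0.71, adjusted p 0.000128, and 0.00134 without the 2 unlike Col-0 libraries). It was the class A gene called in expanding leaves of each line, 1 of 8 in both, with list medians of 0.16 in gtl1-4, also with HSFA6A at its bound, and 0.09 in Col-0. In emerging leaves HSFA6A was below the filter, at 0 in all 6 well-watered libraries and at 0.780 to 39.6 normalized counts in the 6 deficit libraries.

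In emerging leaves 0 of 8 class A genes were called in gtl1-4, and in Col-0 HSFA8 rose by 1.72 (adjusted p 0.0385) and HSFA1D, a master activator of the heat response, fell by 0.55 (adjusted p 0.0485, past the threshold in 11 of 24 alternatives). Of 6 class B and C factor genes 5 were tested, and HSFC1 rose at both ages in both lines. In emerging leaves it was 84.6 ± 42.6 normalized counts under deficit and 26.3 ± 10.8 well-watered in gtl1-4 (log2 fold change 1.60, adjusted p 0.0232) and 99.2 ± 29.3 and 28.5 ± 2.48 in Col-0 (1.73, adjusted p 0.0117). In expanding leaves it rose by 1.85 in gtl1-4 (adjusted p 0.00885) and by 1.60 in Col-0 (adjusted p 0.0119). The repressor-class gene HSFB2A rose by 0.83 in Col-0 expanding leaves (adjusted p 0.0322). Without the 2 unlike Col-0 libraries the calls of HSFC1 (1.53, adjusted p 0.0512) and HSFB2A (0.45, adjusted p 0.256) in expanding leaves of Col-0 were lost.

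Of the DREB2 genes, DREB2A was higher under deficit in emerging leaves of Col-0 in every library but did not pass. It held 0, 28.6 and 7.80 normalized counts under deficit against 5.08, 6.52 and 5.30 well-watered in gtl1-4. In Col-0 it held 26.3, 24.3 and 17.9 under deficit against 1.33, 6.44 and 1.93 well-watered. The groups overlapped in gtl1-4, where deficit replicate 1 had no read (3 counts would allow 3.01), and were apart in Col-0. The fold change was -0.05 in gtl1-4 (95% interval -2.34 to 2.25, adjusted p 0.987), with the sign turned under another scaling (up to 0.22). Over all 23 alternatives it ran from -1.15 to 1.29. The gtl1-4 means were 12.1 ± 14.8 normalized counts under deficit and 5.63 ± 0.775 well-watered (SD, n = 3 each), so the direction in gtl1-4 is not settled. In Col-0 the fold change was 2.67 (0.37 to 4.96, adjusted p 0.119), past the threshold in 2 of 23 alternatives. The interaction was -2.71 (95% interval -5.96 to 0.53, adjusted p 0.889). In expanding leaves DREB2A held 2.49, 6.87 and 0 normalized counts under deficit against 5.48, 1.41 and 7.45 well-watered in gtl1-4, and 11.9, 11.1 and 7.79 under deficit against 8.46, 1.19 and 6.10 well-watered in Col-0. Deficit and well-watered libraries overlapped in both lines, and over both lines together they did not pass (exact permutation p 0.830, 6 against 6 libraries). Under deficit every gtl1-4 library lay below every Col-0 library, a difference that was not tested.

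DREB2B did not pass in emerging leaves and rose under deficit over both lines in expanding leaves. In emerging leaves it held 70.2, 41.5 and 17.2 normalized counts under deficit against 9.15, 4.66 and 10.6 well-watered in gtl1-4, and 28.1, 35.3 and 23.8 under deficit against 37.3, 6.44 and 25.1 well-watered in Col-0. The groups were apart in gtl1-4 and overlapped in Col-0. The fold change was 2.12 in gtl1-4 (95% interval 0.72 to 3.52, adjusted p 0.0580) and 0.60 in Col-0 (-0.80 to 2.00, adjusted p 0.596), neither past the threshold, with an interaction of 1.52 (adjusted p 0.889).

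In expanding leaves DREB2B held 8.30, 12.01 and 10.3 normalized counts under deficit against 4.39, 7.06 and 3.72 well-watered in gtl1-4, and 13.2, 20.9 and 14.7 under deficit against 7.69, 4.76 and 12.2 well-watered in Col-0. Deficit libraries lay above the well-watered libraries of their own line in both lines. The mean difference was 0.94 on the log2(value + 1) scale (exact permutation p 0.00500, the smallest the test can give, 6 against 6 libraries), and p was 0.00500 to 0.0200 without 1 library. After adjustment DREB2B passed in 8 of 12 such tests and missed in those without any of the gtl1-4 well-watered libraries or without Col-0 deficit replicate 2. Without the 2 unlike Col-0 libraries the difference was 0.98 (exact p 0.0167, the smallest that 5 against 5 libraries can give here), and the call was lost (adjusted p 0.0833). A gene that alone reaches this smallest p cannot pass over 5 tests, so this loss does not show a weaker difference. DREB2B is uncertain because 67.5% of its 100-base windows also lie in AT3G11030 on the opposite strand, and no source used here says whether reads were counted by strand. AT3G11030 itself held 101 to 147 normalized counts in emerging and 12.2 to 34.8 in expanding leaves, and its fold changes under deficit were -0.10 in gtl1-4 and 0.0040 in Col-0 in emerging leaves, and 0.10 in gtl1-4 and -0.21 in Col-0 in expanding leaves (adjusted p 0.752 to 0.993).

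**Figure D5:**
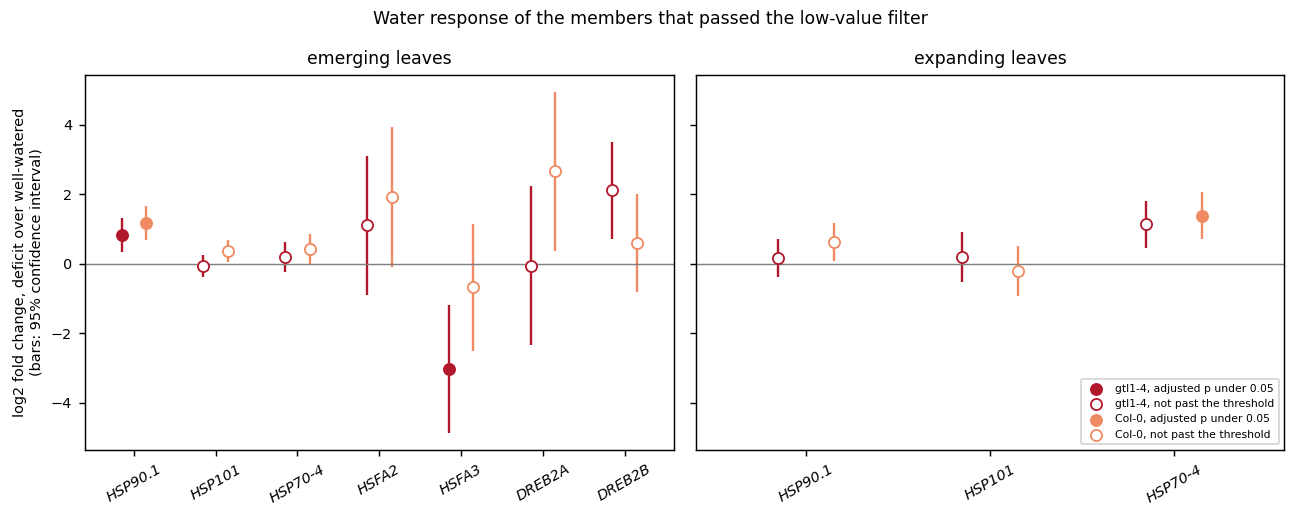
Log2 fold change of deficit over well-watered for the members that passed the low-value filter, 7 in emerging and 3 in expanding leaves, with 95% confidence intervals, gtl1-4 in dark red left of Col-0 in orange; filled points passed an adjusted p of 0.05. The intervals of the factor genes on the right of the emerging panel are several times wider than those of the chaperone genes, and the filled points are HSP90.1 in both lines, HSFA3 in gtl1-4 and HSP70-4 in Col-0.

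The other DREB2 genes gave few values, since 4 of 6 in emerging and 5 of 6 in expanding leaves fell below the filter. Limma called 0 of 2 and 0 of 1 in either line. Of 4 target markers of DREB2A, which abscisic acid factors also switch on, 2 rose in gtl1-4 and 3 in Col-0 in emerging leaves, and 3 rose in gtl1-4 and 2 in Col-0 in expanding leaves, with medians of 1.15, 0.97, 1.14 and 1.06 in that order. RD29B was 32.7 ± 10.5 normalized counts under deficit in Col-0 emerging leaves and at 0 in all 3 well-watered libraries, at least 7.53-fold higher against a floor of 3 counts per library, and the median with this bound was also 0.97. In emerging leaves RD29A was 2851 ± 1428 normalized counts under deficit and 1273 ± 288 well-watered in gtl1-4 (1.07, adjusted p 0.0166) and 2398 ± 420 and 1184 ± 203 in Col-0 (1.02, adjusted p 0.0166). In expanding leaves of gtl1-4 RD29B held 212, 650.5 and 166 normalized counts under deficit against 0, 1.41 and 0 well-watered (adjusted p 2.84e-07). The well-watered value is 1 read over 3 libraries, and the ratio of reads per depth was 1154 (95% exact interval 207 to 45639, for counting error only). In Col-0 RD29B was 524 ± 230 under deficit and 9.73 ± 3.51 well-watered (5.55, adjusted p 4.07e-06, and 1.41e-05 without the 2 unlike Col-0 libraries). RD29A was not called in expanding leaves of Col-0 with all libraries (0.76, adjusted p 0.0747). Without the 2 unlike Col-0 libraries it was called higher (1.10, adjusted p 0.00160), so the lower count in Col-0 rests on them. Of 5 genes for proteins that act on DREB2A or its promoter, DRIP2, a ubiquitin ligase that marks DREB2A for breakdown, fell by 0.54 in Col-0 emerging leaves (adjusted p 0.0113), and 0 were called in the other 3 water comparisons. Of the cold-response DREB1 genes 2 of 3 were tested, and DREB1A rose in emerging leaves by 2.15 in gtl1-4 (adjusted p 0.0112) and by 1.67 in Col-0 (adjusted p 0.0312), with 0 called in expanding leaves.

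Co-chaperone genes changed in both directions. Of 12 co-chaperones and heat-response genes, MBF1C, a coactivator of heat tolerance, rose in emerging leaves by 0.96 in gtl1-4 (adjusted p 0.0221) and by 0.82 in Col-0 (adjusted p 0.0349), and ROF1 fell by 0.48 in gtl1-4 (adjusted p 0.0379). ROF2 and BAG6 rose by 0.84 and 0.68 in Col-0 emerging leaves. In expanding leaves HSA32, a gene of heat memory, rose by 1.96 in gtl1-4 (adjusted p 0.0207) and by 1.91 in Col-0 (adjusted p 0.0131), and in Col-0 BAG6 rose by 0.80 and J3 fell by 0.61. All 3 calls in Col-0 were lost without the 2 unlike Col-0 libraries (adjusted p 0.0600 for HSA32, 0.146 for BAG6 and 0.0851 for J3). Counts were 1 higher and 1 lower in gtl1-4 and 3 higher in Col-0 in emerging leaves, and 1 higher in gtl1-4 and 2 higher and 1 lower in Col-0 in expanding leaves.

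Of 6 tested chaperone genes of the endoplasmic reticulum, 5 fell in gtl1-4 and 2 in Col-0 in emerging leaves, and 0 in gtl1-4 and 6 in Col-0 in expanding leaves. The median was -0.44, -0.35, -0.15 and -0.74 in that order. CNX1, for calnexin, fell by 0.55 and 0.68 in emerging leaves of gtl1-4 and Col-0 (adjusted p 0.0242 and 0.00495) and by 1.02 in expanding leaves of Col-0 (adjusted p 0.00635). Without the 2 unlike Col-0 libraries 2 of the 6 calls in expanding leaves of Col-0 were kept, CNX1 (-0.80, adjusted p 0.0140) and CRT3 (-0.80, adjusted p 0.0174). The interaction called 0 of the 6 genes. Of 8 organelle chaperone genes, CLPB3, the plastid relative of HSP101, rose in emerging leaves by 0.38 in gtl1-4 (adjusted p 0.0175) and by 0.48 in Col-0 (adjusted p 0.00311). The plastid HSP70 gene cpHSC70-2 fell in all 4 water comparisons, by 0.60 and 0.55 in emerging and by 0.74 and 1.04 in expanding leaves of gtl1-4 and Col-0. The whole list had 1 higher and 2 lower in gtl1-4 and 2 higher and 1 lower in Col-0 in emerging leaves, and 0 higher and 1 lower in gtl1-4 and 1 higher and 1 lower in Col-0 in expanding leaves. The higher call in expanding leaves of Col-0 was CLPB4 (0.95, adjusted p 0.0273). Without the 2 unlike Col-0 libraries it was lost (0.81, adjusted p 0.141), and that of cpHSC70-2 was kept (-0.74, adjusted p 0.00897).

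Genes of handling and of the time of day were measured beside these results. Of 3 touch genes 2 fell in each line in emerging leaves and 1 in each line in expanding leaves, with TCH4 at -2.61 in gtl1-4 and -1.60 in Col-0 in emerging leaves and TCH3 at -1.78 and -2.13 in expanding leaves. Of 7 clock genes 3 rose and 1 fell in each line in emerging leaves, where LHY, a morning gene, fell by 1.19 in gtl1-4 and by 0.87 in Col-0. In expanding leaves 0 rose and 1 fell in gtl1-4, and 1 rose and 1 fell in Col-0, with LHY at -1.21 and -1.07. The gene that rose in Col-0 was CCA1 (0.44, adjusted p 0.0447), a call lost without the 2 unlike Col-0 libraries (0.47, adjusted p 0.0887). GI was then called higher in Col-0 (0.55, adjusted p 0.0354) and in gtl1-4 (0.54, adjusted p 0.0114). Over all lists and markers, 24 genes were called for deficit in expanding leaves of Col-0, and without the 2 unlike Col-0 libraries 11 of them were kept, 13 lost and 3 others gained, with 0 turned in sign. In gtl1-4 all 13 were kept and 3 others gained. The part of the touch and clock genes in the chaperone results was not tested.

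Between gtl1-4 and Col-0 none of the tested members passed at either leaf age or water supply. Limma called 0 of 7 members in emerging leaves between well-watered lines (0.162% of all genes were called) and 0 of 7 under deficit (0.183%), with 0 and 2 at an unadjusted p under 0.05. In expanding leaves it called 0 of 3 between well-watered lines (1.34%) and 0 of 3 under deficit (0.169%), with 0 and 0 at an unadjusted p under 0.05. The interaction called 0 of 7 in emerging and 0 of 3 in expanding leaves, where 0.0% of all genes were called at each age, 987 and 948 genes had an unadjusted p under 0.05, and 0 members did. Limma-voom also called 0 members in each of these 6 comparisons. The members with an unadjusted p under 0.05 were HSP101 and HSFA3 in emerging leaves under deficit, at -0.47 and -1.91, both lower in gtl1-4. The intervals of the well-watered difference in emerging leaves were -0.56 to 0.41 for HSP90.1, -0.36 to 0.26 for HSP101 and -0.45 to 0.42 for HSP70-4, so a difference of 2-fold lies outside all 3, whereas for DREB2A the interval of -1.46 to 3.13 does not exclude it. Among the 95 genes of the 13 other lists 2 passed, namely TCH4, which was lower in gtl1-4 in emerging leaves under deficit (-1.19, adjusted p 0.00410), and RD29B, which was lower in gtl1-4 in well-watered expanding leaves (adjusted p 0.00895). RD29B rests there on 1 read in gtl1-4, at 0, 1.41 and 0 normalized counts against 10.0, 13.1 and 6.10 in Col-0, with a ratio of 0.0328 (95% exact interval 0.000805 to 0.197, for counting error only). Without the 2 unlike Col-0 libraries the RD29B call was kept (adjusted p 0.00387). RD29A was then also called lower in gtl1-4 in well-watered expanding leaves (-0.84, adjusted p 0.0228), against -0.74 (adjusted p 0.208) with all libraries. The comparisons of a leaf age share libraries, so they are not independent of each other.

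Genes whose pattern over the 12 libraries was most like a member's were named for HSP101 and DREB2A, from all genes averaging 50 normalized counts or more. In emerging leaves AT5G64480 (Pearson r 0.885), AT3G48070 (0.882) and AT1G01930 (0.866) were most like HSP101 among 16229 genes, and AT4G26095 (0.910), AT1G17930 (0.903) and AT5G62610 (0.900) were most like DREB2A. In expanding leaves CHR5 (0.901), AT4G03020 (0.897) and IQD30 (0.873) were most like HSP101 among 12081 genes, and AT5G60990 (0.800), AT2G28360 (0.785) and AT1G18010 (0.773) were most like DREB2A. The sets at the 2 ages share no gene. All points share libraries and their depth, and a highest value among so many genes over 12 libraries is a description only.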

How the data were processed

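For each leaf age the authors deposited a table of normalized counts, a signal in which each gene's count was divided by 1 size factor per library. Per the submitters' processing notes bcl2fastq, Trimmomatic, FastQC, Trim Galore, STAR, RSEM and the TAIR10 build were used, while the normalization method, the counting strand and tool versions are not given in the sources used here. Low values of a library (under 2000 reads) lay on a grid with a spacing of 0.01 of its step, the value of 1 read, and 96.5 to 97.9% were whole within a tolerance of 0.002, from which the depth and the floor of 3 counts (1.79 to 5.80 normalized counts in emerging leaves) were taken. Floors cover counting error only. As part of the values are not whole, count models were not applied, apart from limma-voom as an alternative.

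The 10 members and the 13 other gene lists were chosen with earlier results of these data known. Values were tested as log2(value + 1) in limma 3.58.1 (R 4.3.3) over all genes that averaged at least 10 across the 12 libraries of a table, with 1 model of 4 group means per leaf age, a variance trend, 95% confidence intervals and Benjamini-Hochberg adjustment over all genes tested, where an adjusted p under 0.05 was a call. Fold changes on this scale can understate the change of low genes, and where a library is at 0 they can also exceed the ratio of the group means. For HSFA2 in Col-0 emerging leaves, means of 28.1 under deficit and 11.2 well-watered gave a fold of 3.81 on this scale. Members below the filter were tested by exact permutation of the water labels within lines (400 arrangements), where they had reads in at least 6 libraries. The tables were scaled separately, so no test was made between leaf ages. All 10 members and, from each list, at most the 3 called genes of largest fold change were to be named, with GTL1 as a check, and a few others were named after their values were seen. The limma step was also run on simulated data, and no result here rests on that run. Its changes were given only to genes with higher means than HSFA2, HSFA3 and DREB2A had in emerging leaves. Replicates of a group differed beyond sampling noise, and the labels name them biological replicates. Replicate numbers of groups did not deviate together, so samples were not treated as paired. Alternatives were pseudocounts of 0.5 and 5, other filters, scalings and models, and leaving out libraries. Sequences and gene models are those of RefSeq's TAIR10.1 assembly, in which 37051 of 37336 identifiers matched. Python 3.11.15 with pandas 2.3.3, numpy 2.4.6 and matplotlib 3.10.9 was used.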

Additional observations from a re-analysis of the deposited data

How the results depend on the processing

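Of 1175 recomputed fold changes of members over 50 comparisons 0 turned a called direction, 19 lost a call, 16 gained one and 31 changed the sign of a value that was not called. Counts of called members moved as follows, without the share of all genes under each setting beside them. Calls over all genes also moved, for deficit in Col-0 emerging leaves from 2439 to 2023 with limma-voom. The moves below are therefore not read as a result about the members. For deficit in gtl1-4 emerging leaves, 2 were called, against 1 with no low-value filter, with quantile normalization, with no variance trend, with limma-voom and with a replicate block, 0 with only the groups compared, and 0 to 3 without 1 library. With a mean of at least 50 there was also 1, because HSFA3, with a mean of 12.5, was not tested there. For deficit in Col-0 emerging leaves, 1 was called, against 2 with no variance trend, 3 with only the groups compared and 1 to 2 without 1 library. For deficit in gtl1-4 expanding leaves, 0 were called, against 1 with a pseudocount of 5, quantile normalization, array weights, only the groups compared, nuclear-sum rescaling or without the 2 unlike Col-0 libraries, the last of these and the nuclear-sum rescaling being chosen after seeing the data, and 0 to 1 without 1 library. For deficit in Col-0 expanding leaves, 1 was called, against 0 to 1 without 1 library. Below the filter, 2 were called in the permutation tests, and 0 to 2 without 1 library (200 arrangements each). Without the 2 unlike Col-0 libraries 0 were called, but there the smallest possible p of 0.0167 cannot pass over 5 tests for a gene that reaches it alone, as DREB2B did. The cause of these moves was not tested. Between the lines and for the interaction, 0 members were called under every alternative run.

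Same-numbered replicates had correlated deviations of -0.28 to 0.20 in emerging and -0.16 to 0.13 in expanding leaves, so the numbers do not pair the samples. The replicate block changed no other count than that for gtl1-4 emerging leaves. Over all genes, nuclear-sum rescaling changed the split of higher against lower calls from 1200 and 1239 to 1692 and 760 for deficit in Col-0 emerging leaves, from 390 and 397 to 491 and 291 for deficit in gtl1-4 expanding leaves, and from 117 and 105 to 84 and 140 for gtl1-4 against Col-0 in well-watered expanding leaves. The block, filter, weight and trend alternatives could not be applied to the permutation tests. Depth limits HSP17.4 and HSP23.6 at both ages and HSFA6B in expanding leaves, whose counts allow no comparison.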
